A study of Mus musculus with 90 samples.

Results

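The expression of 73 genes of 6 families of solute carriers was examined across 15 tissues of female mice and between the estrus and diestrus phases of the estrous cycle. They were chosen by name alone, as every gene of the table whose mouse symbol begins with Slc1a, Slc5a, Slc6a, Slc7a, Slc36a or Slc38a, and they make up 73 of 20414 genes. Of these, 7 belong to Slc1, 13 to Slc5, 22 to Slc6, 16 to Slc7, 4 to Slc36 and 11 to Slc38. Slc6a19os and Slc7a6os are named for the opposite strand of a transporter gene, so 71 are transporter genes. The sources used here do not say whether reads were counted by strand, so reads of these 2 cannot be told apart from those of the overlapping genes.

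The animals were untreated C57BL/6 females, 10 weeks old by the sample labels, and their phase was read from stained vaginal secretions. In the study's methods the substrain is given as C57BL/6J and the age as younger. RNA was sequenced from cerebrum and hypothalamus, ovary and uterus, stomach and duodenum, kidney, spleen, liver, heart and skeletal muscle, aorta and vein, and brown (BAT) and white (WAT) adipose tissue. There were 3 libraries per tissue and phase, which gave 90 libraries in 30 groups, all of whole tissue. The values are FPKM, fragments scaled to the length of the transcript and the size of the library, so levels can be set side by side between genes.

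These carriers move small polar molecules that cannot cross the plasma membrane unaided. Slc1, Slc5, Slc6 and most of Slc38 draw on the sodium gradient to carry glutamate, sugars, neurotransmitters and neutral amino acids into cells. Slc36 uses protons, and many Slc7 proteins are light subunits that exchange amino acids only when bound to a heavy subunit, Slc3a1 or Slc3a2. The kidney tubule and the small intestine are known for reclaiming and absorbing sugars and amino acids with them, and the brain for clearing transmitters from synapses.

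Windows of 300 bases around the gene start, from 250 bases before it to 50 bases after it, were taken from RefSeq (GRCm38.p6) for the 53 members that the promoter table holds. They were read for 2 short motifs, on both strands. The first, GTTAAT, is one arm of the site of HNF1, a transcription factor of kidney, gut and liver epithelium. It stood in windows of 8 of the 53 members (15.1%), against 8.24% of all 27025 genes with a window. Of the members higher in duodenum than elsewhere, described further on, 5 of the 12 with a window held it (Slc5a4a, Slc6a20a, Slc7a7, Slc7a15 and Slc36a1), and of those higher in kidney 5 of 18 (Slc5a10, Slc6a13, Slc6a20a, Slc7a7 and Slc36a1). For those higher in cerebrum and hypothalamus the counts were 2 of 16 and 2 of 18. The share among all genes called higher in these tissues was not computed. A longer part of the site, GTTAAT followed by any base and then ATT, was in windows of none of the 53 members and of 0.47% of all genes. The windows of 3 duodenal transporters are shown, each in the direction of transcription, with this motif in capitals (GTTAAT, or ATTAAC where it lies on the opposite strand). It lay 56 bases before the start in Slc6a20a, 183 bases before it in Slc7a15 and 11 bases after it in Slc5a4a.
Slc5a4a at chr10:76147201-76147500, plus strand: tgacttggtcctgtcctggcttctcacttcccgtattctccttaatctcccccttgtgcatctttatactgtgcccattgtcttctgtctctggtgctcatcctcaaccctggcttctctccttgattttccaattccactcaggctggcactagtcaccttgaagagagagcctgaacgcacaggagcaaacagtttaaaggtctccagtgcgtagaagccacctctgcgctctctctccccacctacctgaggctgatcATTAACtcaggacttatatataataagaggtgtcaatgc
Slc6a20a at chr9:123678783-123679082, minus strand: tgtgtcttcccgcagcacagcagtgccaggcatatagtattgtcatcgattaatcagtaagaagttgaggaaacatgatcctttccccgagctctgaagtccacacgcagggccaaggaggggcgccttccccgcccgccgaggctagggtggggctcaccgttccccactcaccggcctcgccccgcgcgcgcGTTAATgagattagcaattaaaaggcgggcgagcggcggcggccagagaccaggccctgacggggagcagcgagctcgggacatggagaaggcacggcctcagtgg
Slc7a15 at chr12:8599017-8599316, minus strand: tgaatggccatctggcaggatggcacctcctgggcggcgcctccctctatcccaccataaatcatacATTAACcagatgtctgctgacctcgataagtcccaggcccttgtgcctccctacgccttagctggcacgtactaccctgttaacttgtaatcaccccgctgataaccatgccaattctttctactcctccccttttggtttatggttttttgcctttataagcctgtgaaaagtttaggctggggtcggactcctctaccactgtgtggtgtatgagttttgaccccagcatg

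The second motif, TGATGNAA, is the core of the amino acid response element, through which cells short of amino acids raise the transcription of transporter genes. It was found in 4 of the 53 members (7.55%), Slc1a4, Slc6a21, Slc7a7 and Slc7a11, against 4.51% of all genes. Slc7a7 held it at 2 positions, 1 of them shared by a pair of overlapping windows. Slc7a11, the cystine and glutamate exchanger, held it 2 times, at 66 and 47 bases before its start and on opposite strands. Its window is shown because its level varied between libraries of 1 tissue, the uterus, as given with the uterus. The motifs were chosen with the tissue levels known, and a match in these letters shows no binding.
Slc7a11 at chr3:50443564-50443863, minus strand: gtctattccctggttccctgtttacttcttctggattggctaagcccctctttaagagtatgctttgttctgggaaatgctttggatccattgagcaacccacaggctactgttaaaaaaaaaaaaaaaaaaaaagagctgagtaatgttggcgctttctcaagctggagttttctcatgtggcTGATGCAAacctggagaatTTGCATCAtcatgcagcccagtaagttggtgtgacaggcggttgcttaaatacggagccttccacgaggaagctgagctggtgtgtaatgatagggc

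The 73 genes were expressed in fewer tissues than the table as a whole. A mean of at least 1 FPKM was reached in all 15 tissues by 12 of them (16.4%), against 41.7% of all genes, and in 1 tissue alone by 9 (12.3%), against 6.26% of all genes. The median tau, an index that runs from 0 for an even level over tissues to 1 for a gene found in 1 tissue, was 0.806 for them and 0.550 for all genes. The 12 expressed throughout were Slc1a5, Slc5a6, Slc6a6, Slc6a8, Slc7a6os, Slc7a8, Slc36a1, Slc38a2, Slc38a6, Slc38a7, Slc38a9 and Slc38a10, which include the taurine carrier Slc6a6, the creatine carrier Slc6a8 and the amino acid sensor of the lysosome, Slc38a9. Slc6a5, Slc6a19os, Slc6a21, Slc7a13 and Slc38a8 stayed under 1 FPKM in every tissue. The tissue where the mean was highest was the hypothalamus for 16 members (21.9%, with 12.0% of all genes), the kidney for 14 (19.2%, with 5.34%) and the duodenum for 12 (16.4%, with 6.34%).

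**Figure D1:**
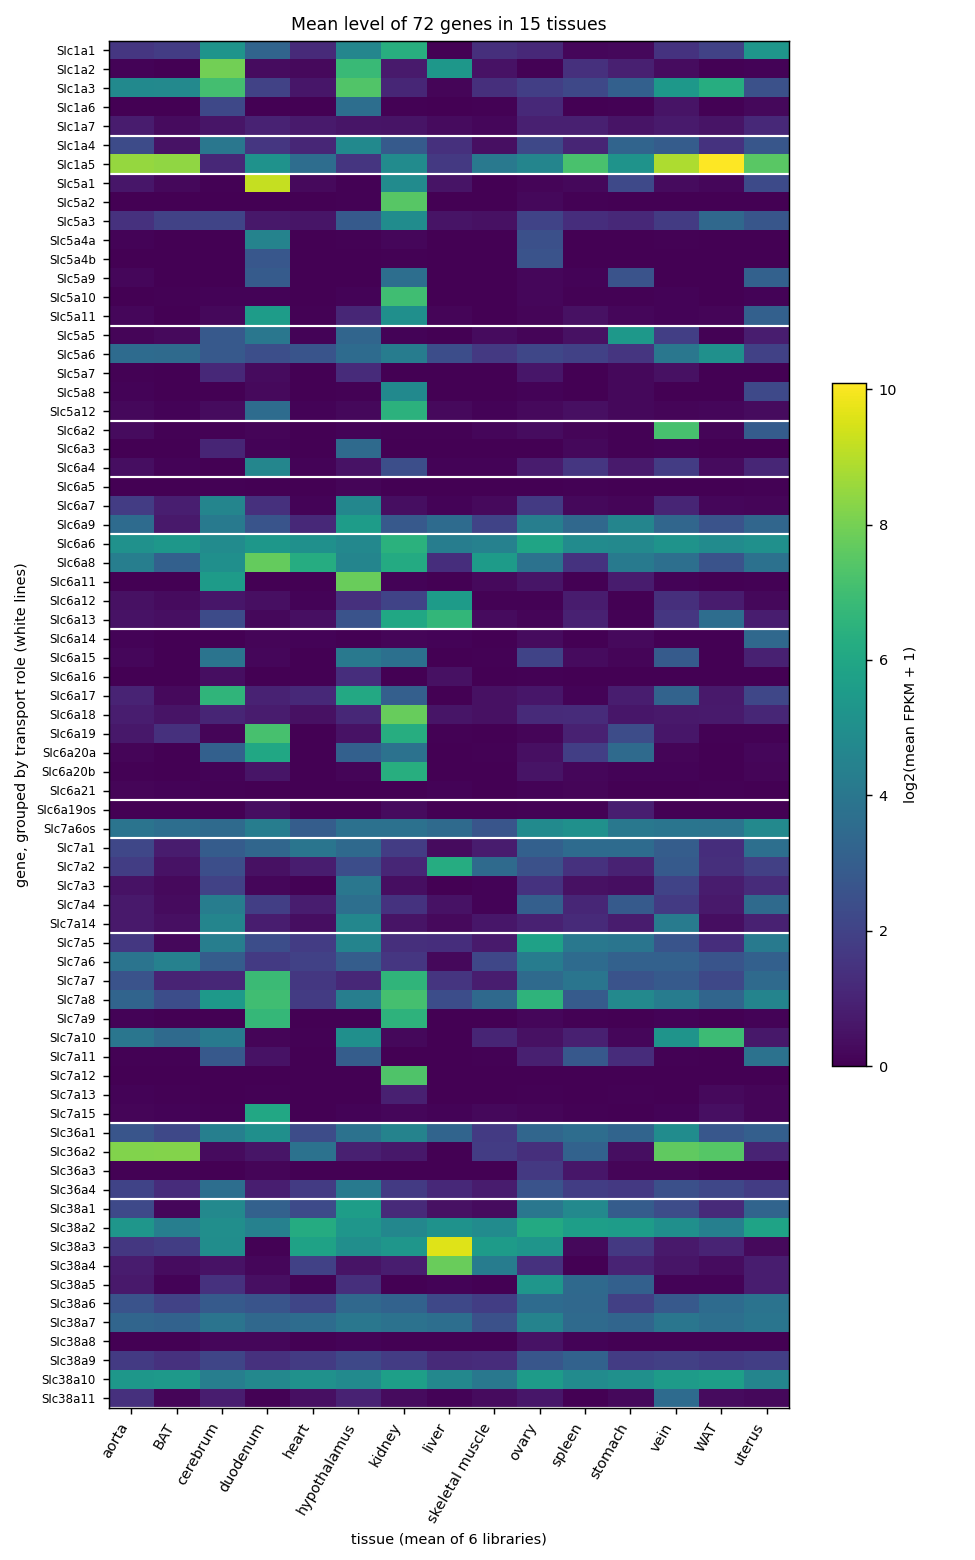
Mean level of 72 of the 73 genes (rows, grouped by transport role) in each of the 15 tissues (columns, 6 libraries each), on a log2(mean FPKM + 1) scale. Kidney and duodenum, and cerebrum and hypothalamus, share blocks of high genes, while 5 rows stay under 1 FPKM in every column.

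One library stood apart in depth: BAT estrus replicate 3 lists 12048 genes at 0, against 2404 to 4820 in the other 89 libraries, and 54 of the 73 members are at 0 there. The smallest steps between values put 1 read on a transcript of 1 kb at about 13.6 FPKM in it and at 0.0598 to 0.162 FPKM elsewhere, so a 0 in it says little. The means of the defining markers were highest in the tissue of that name wherever a list was held. Single libraries also held markers of a neighbouring tissue. The library labelled duodenum estrus replicate 1 had gastric markers (Gkn1, Gkn2, Tff1 and Atp4a) at a sum of 51738 FPKM, above the 29239 to 50954 FPKM of the stomach libraries, where the other 5 duodenum libraries had at most 25.6 FPKM. Hypothalamus estrus replicate 2 held pituitary markers, uterus estrus replicate 3 squamous and oviduct markers, ovary estrus replicate 3 oviduct markers and spleen estrus replicate 2 pancreatic markers, with the values given beside the results they touch. Aorta and vein held brown and white fat. In whole tissue, fewer cells of a type and less RNA per cell cannot be told apart.

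Each tissue was compared with the mean of the other 14 in 1 limma fit of all 90 libraries on log2(FPKM + 1), a scale that understates the change of low genes. A gene was called at an absolute log2 difference of at least 1 and a Benjamini-Hochberg adjusted p of at most 0.05 over all genes. The kidney had the most members called higher, 27 of 73 (37.0%), where 9.84% of all genes were. The hypothalamus followed with 26 (background 18.5%), the cerebrum with 24 (16.5%) and the duodenum with 15 (11%). The members called lower were most in skeletal muscle, with 28 of 73 (background 26.5%), and in heart, liver and BAT, each with 25 (backgrounds 11.4%, 26.8% and 15.6%). In all, 65 of the 73 were called higher in at least 1 tissue. The other 8 were Slc1a7, Slc5a7, Slc6a5, Slc6a19os, Slc6a21, Slc7a13, Slc38a8 and Slc38a10, and the last of these was above 1 FPKM in every tissue. Rescaling each library by its median ratio moved the median difference of all genes by 0.41 in liver, 0.29 in skeletal muscle, -0.21 in ovary and -0.11 in uterus (log2), and by less than 0.1 elsewhere. In skeletal muscle 18 members were then called lower.

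**Figure D2:**
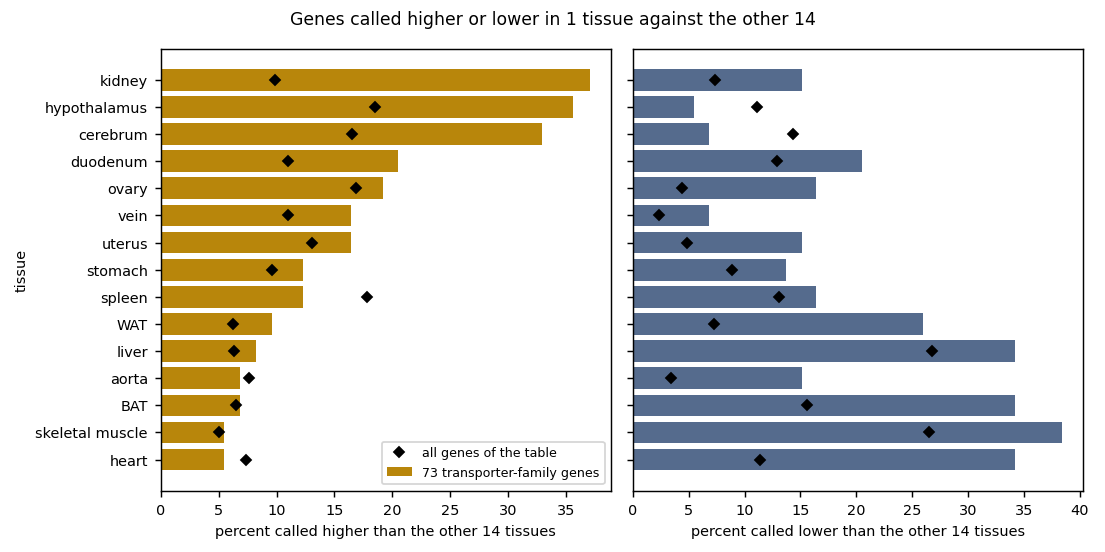
Percent of the 73 genes (bars) and of all 20414 genes (diamonds) called higher (left) or lower (right) in each tissue than in the other 14. In kidney 37.0% of the members were called higher against 9.84% of all genes, and in heart 34.2% were called lower against 11.4%.

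Of the 8 sugar and inositol carriers of Slc5, 6 were called higher in kidney (background 9.84%) and none lower (7.39%). In duodenum 5 were called higher (background 11%) and 1 lower (12.9%). Slc5a2, the glucose carrier of the early proximal tubule, ranged over 116 to 213 FPKM with a median of 185 in the 6 kidney libraries (log2 difference 7.42, SE 0.04, adjusted p = 9.26e-84). Its mean was at most 0.17 FPKM in every other tissue. Slc5a10, a carrier of mannose and fructose, was likewise a kidney gene, at 99.6 to 163 FPKM with a median of 125, with 0.12 FPKM or less as the mean elsewhere. Slc5a12 and Slc5a8, carriers of lactate and other monocarboxylates, had means of 89.9 ± 24.2 FPKM and 26.9 ± 5.49 FPKM in kidney (SD, n = 6).

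The duodenum held the other sodium-glucose carrier. Slc5a1, which takes up glucose and galactose from the gut lumen, ranged over 191 to 995 FPKM with a median of 543 there (log2 difference 8.17, SE 0.18, adjusted p = 1.69e-47) and over 25.8 to 31.9 FPKM with a median of 27.8 in kidney, without overlap. The close relatives Slc5a4a and Slc5a4b were found in duodenum, at means of 22.00 and 5.78 FPKM, and in ovary, at 4.51 and 5.07 FPKM, and had means of at most 0.142 FPKM in the other 13 tissues. Their levels ran together over the 15 tissues (r = 0.961), but they are near copies, between which the read counting may have split reads. Slc5a11, a carrier of myo-inositol, was high in duodenum (47.2 ± 24.1 FPKM) and kidney (31.7 ± 4.30 FPKM; both SD, n = 6). Slc5a3, the other inositol carrier and a known target of the osmotic response, was highest in kidney at 22.97 to 39.7 FPKM with a median of 26.5.

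Amino acid carriers of the brush border were high in kidney, in duodenum or in both. Of the 9 amino acid transporters of Slc6, 6 were called higher in kidney (background 9.84%). Slc6a15 and Slc6a17, which had their highest means in hypothalamus and cerebrum, also reached log2(FPKM + 1) means of 3.70 and 3.04 in kidney. Slc6a19, the main neutral amino acid carrier of gut and kidney, ranged over 36.9 to 279 FPKM with a median of 117 in duodenum and over 57.3 to 102 FPKM with a median of 73.03 in kidney, and these ranges overlapped. Slc6a18, a renal carrier of glycine and other neutral amino acids, was at 182 to 236 FPKM with a median of 221 in kidney and at a mean of 0.722 FPKM in duodenum. Slc1a1, the glutamate carrier of kidney and neurons, was highest in kidney at 72.6 to 89.7 FPKM with a median of 79.7, without overlap with the cerebrum (31.4 to 40.99 FPKM with a median of 35.7).

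The partners of these carriers were read from a list of 9 heavy and accessory subunits. Of these, 8 were called higher in kidney (background 9.84%) and 6 in duodenum (11%). Cltrn, the partner of Slc6a18 and Slc6a19 in kidney, had a mean of 755.9 FPKM in kidney and 0.223 FPKM in duodenum. Over the 15 tissues the log2 means of Slc6a18 ran with those of Cltrn (r = 0.990), and those of the cystine carrier Slc7a9 with its heavy subunit Slc3a1 (r = 0.892). Slc7a5 and Slc3a2, which form the large neutral amino acid exchanger, had r = 0.449. These are descriptions over n = 15 tissues, and the genes were read in the same libraries.

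The basolateral and apical light subunits of Slc7 were high in both epithelia. Slc7a9, the apical subunit, was at 45.2 to 152 FPKM with a median of 112 in duodenum and 78.8 to 110.2 FPKM with a median of 85.2 in kidney, and at most 0.132 FPKM as a mean elsewhere. Slc7a7, the basolateral exit route of cationic amino acids, had means of 115 and 97.7 FPKM, and Slc7a8 of 126 and 137 FPKM. Both Slc7a7 and Slc7a8 overlapped between the tissues.

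Kidney and duodenum were also compared directly, over their 12 libraries with phase as a covariate, in 1 of 3 tissue pairs tested. In kidney, 18 of 73 members were called higher (background 14.9%) and 9 lower (12.1%). Slc5a2 led the kidney side (log2 difference 7.43, SE 0.13, adjusted p = 6.54e-13). Slc7a12, a light subunit that works without the known heavy subunits, ranged over 86.3 to 240.3 FPKM with a median of 156 in kidney and was listed at 0 in 5 of the 6 duodenum libraries (log2 difference 7.22, SE 0.20, adjusted p = 4.68e-11). Slc6a18, Slc5a10 and Slc6a13, the last a carrier of GABA and taurine, had log2 differences of 6.96, 6.88 and 5.79.

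On the duodenum side Slc7a15, a member of the light subunit branch, ranged over 21.6 to 130.4 FPKM with a median of 46.2 (log2 difference -5.57, SE 0.38, adjusted p = 1.45e-07), and its mean was at most 0.323 FPKM in every other tissue. Slc5a1 had a log2 difference of -4.13, Slc5a4a of -3.94 and Slc5a4b of -2.17. Slc6a4, the serotonin carrier, had -2.10, with 6.68 to 36.3 FPKM with a median of 26.3 in duodenum and 2.34 to 6.04 FPKM with a median of 4.54 in kidney. Slc6a20a and Slc6a20b, near copies that carry proline and other imino acids, differed in opposite directions between the 2 tissues. Slc6a20a still had a mean of 13.1 FPKM in kidney, and the read counting may have split reads between these copies as well. Slc6a20a was higher in duodenum, by a log2 difference of -2.09 on the kidney side, and Slc6a20b in kidney, by 5.75. The duodenal levels varied with the enterocyte markers, whose sum was 3524 FPKM in estrus replicate 1, the lowest library for Slc5a1, Slc6a19, Slc7a9 and Slc6a20a, and 5458 to 14549 FPKM in the other 5. Without that library, which is also the one with gastric markers, 19 members were called higher and 9 lower in kidney, and against the other 14 tissues 15 were called higher and 17 lower in duodenum, where the log2 difference of Slc5a1 was then 8.56.

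**Figure D3:**
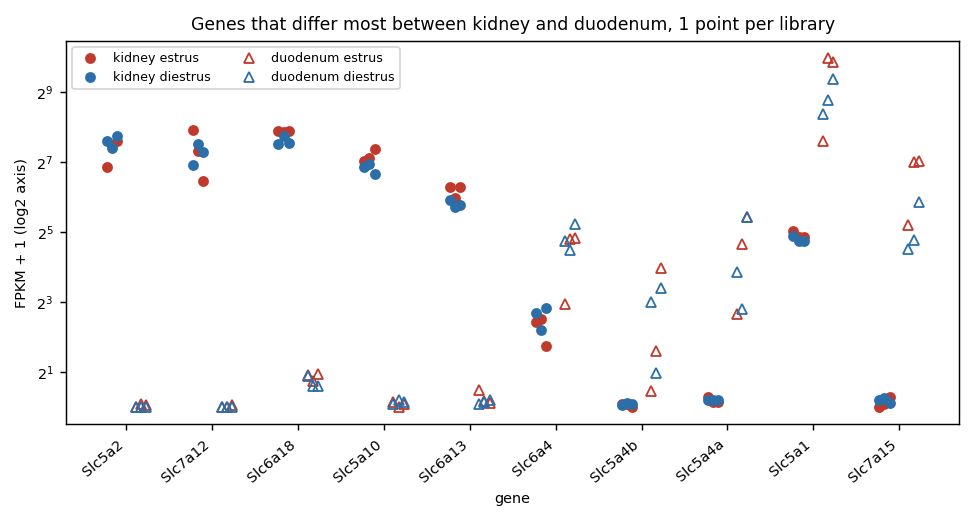
FPKM + 1 on a log2 axis for the 10 members with the largest differences between kidney (filled circles) and duodenum (open triangles), 1 point per library, red for estrus and blue for diestrus. The 5 genes on the left sit above 50 FPKM in every kidney library and under 1 FPKM in every duodenum library, and Slc5a1 is high in both.

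Several glutamate and GABA carriers were highest in a brain region. The noradrenaline carrier Slc6a2 was highest in vein and the serotonin carrier Slc6a4 in duodenum. Of 5 glutamate transporters 4 were called higher in the cerebrum (background 16.5%) and 4 in the hypothalamus (18.5%). Slc1a2, the main astrocytic glutamate carrier, ranged over 198 to 272 FPKM with a median of 248 in cerebrum and 108 to 122 FPKM with a median of 116 in hypothalamus. It was also listed in liver at 27.7 to 46.01 FPKM with a median of 40.9. Slc1a3, the other astrocytic glutamate carrier, had means of 163 FPKM in hypothalamus and 135 FPKM in cerebrum, and of 77.7 FPKM in WAT. Slc6a17, a carrier of neutral amino acids on synaptic vesicles, had 96.9 FPKM in cerebrum and 68.1 FPKM in hypothalamus. Of the 5 cationic amino acid transporters of Slc7, 4 were called higher in hypothalamus (background 18.5%) and 3 in cerebrum (16.5%). The summed pituitary markers were at 31528 FPKM in hypothalamus estrus replicate 2 and at 41.0 to 395 FPKM in the other 5 libraries. Without that library 27 members were called higher in hypothalamus than in the other tissues.

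Between the 2 brain regions 5 members were called higher in hypothalamus (background 3.4%) and 2 lower (2.98%), with the other 66 not called. Slc6a11, the glial GABA carrier, ranged over 208 to 237 FPKM with a median of 222 in hypothalamus and 33.02 to 58.01 FPKM with a median of 45.4 in cerebrum (log2 difference 2.30, SE 0.12, adjusted p = 2.02e-08). The cationic amino acid carrier Slc7a3 had a log2 difference of 2.06, and the glutamate carrier Slc1a6 and the glycine carrier Slc6a9 of 1.47 and 1.47. Slc6a3, the dopamine carrier, had 2.04 (adjusted p = 0.0278), but its hypothalamus libraries ran from 0.68 to 42.2 FPKM with a median of 4.63, and the highest, estrus replicate 3, has the number that was also highest in cerebrum, at 5.97 FPKM. Without the libraries numbered 2 the adjusted p was 0.211. Without the library with pituitary markers alone it was 0.0408, and the counts of called members were the same. The 2 lower genes were Slc1a2 (-1.07) and Slc7a8 (-1.07).

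Liver, heart and skeletal muscle had few members called higher, and the liver held some of the highest levels. Slc38a3, a glutamine carrier, ranged over 610.1 to 898 FPKM with a median of 821 in liver (log2 difference 6.87, SE 0.19, adjusted p = 4.55e-41), with heart at 50.7 to 63.1 FPKM with a median of 53.98 and skeletal muscle at 29.0 to 59.2 FPKM with a median of 51.5. Slc38a4, a carrier of neutral amino acids, was at 187 to 243 FPKM with a median of 219 in liver and at a mean of 17.96 FPKM in skeletal muscle. The betaine carrier Slc6a12 and the GABA and taurine carrier Slc6a13 had liver means of 45.2 and 101 FPKM, and the arginine carrier Slc7a2 of 75.2 FPKM. In liver 6 members were called higher (background 6.36%), and in heart and skeletal muscle 4 each (7.39% and 5.07%). In heart the creatine carrier Slc6a8 ranged over 68.7 to 81.1 FPKM with a median of 77.02, under the duodenum at a mean of 209.5 FPKM. Slc7a1, a carrier of arginine and lysine, and Slc38a2, a glutamine carrier, were called higher in heart by log2 differences of 1.57 and 1.11, the second of which was 0.98 without the libraries numbered 2. In skeletal muscle Slc7a2 and Slc6a8 followed the glutamine carriers, at 1.61 and 1.41.

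Slc1a5, the exchanger of alanine, serine, cysteine and glutamine, was the highest of all members in any tissue. It ranged over 839 to 1249.7 FPKM with a median of 1144 in WAT (log2 difference 4.96, SE 0.14, adjusted p = 9.21e-40), without overlap with vein (292 to 589 FPKM with a median of 439), which was followed by aorta and BAT at means of 361 and 339 FPKM. Slc36a2, a proton-coupled carrier of glycine and proline, was called higher in the same 4 tissues, with means of 301 in BAT, 289 in aorta, 198 in vein and 170.3 FPKM in WAT. Slc7a10, an exchanger of small neutral amino acids known from astrocytes, was highest in WAT at 80.95 to 160.5 FPKM with a median of 119. Slc5a6, the carrier of biotin and pantothenate, was highest in WAT as well (log2 difference 2.28, SE 0.15, adjusted p = 2.84e-21). In WAT 7 members were called higher (background 6.25%) and 19 lower (7.3%), and in BAT and aorta 5 each were called higher (6.5% and 7.65%). The light subunit Slc7a6 was among those of BAT and aorta, at log2 differences of 1.74 and 1.19, and Slc7a10 in BAT had 1.27, or 0.97 without the shallow library.

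The vessels held fat markers at the same time. The summed brown fat markers Ucp1, Cidea and Elovl3 ran from 312 to 4799.7 FPKM in aorta and from 439 to 1321 FPKM in vein, and the white fat markers Adipoq, Plin1, Lep and Retn from 216 to 1915 FPKM and from 1305 to 3511 FPKM. Aorta estrus replicate 1 was lowest in both lists and highest in the smooth muscle markers (15590 FPKM, against 1551 to 2376 FPKM in the other 5), and it was also the lowest of the aorta for Slc36a2 (41.5 FPKM, with 284 to 358 FPKM in the other 5) and for Slc1a5, Slc7a10 and Slc1a3. The part of this fat in the levels was not tested.

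The monoamine carrier Slc6a2, which returns noradrenaline to sympathetic nerve endings, was a vein gene. It ranged over 78.03 to 209.8 FPKM with a median of 146 in vein (log2 difference 6.78, SE 0.11, adjusted p = 3.66e-54) and had a mean of 6.74 FPKM in uterus, and at most 0.262 FPKM in the other 13 tissues. The sympathetic neuron markers Th, Dbh and Npy summed to 1138 to 2790 FPKM in the same libraries, and the 2 libraries with the lowest sums, estrus replicates 2 and 3, were the 2 lowest for Slc6a2. Slc38a11 and Slc7a14, at means of 10.5 and 17.2 FPKM, were called higher in vein as well (log2 differences 3.04 and 2.91). The part of neurons in these levels was not tested. Of 73 members 12 were called higher in vein (background 11%) and 5 lower (2.36%), or 11 and 8 after each library was rescaled by its median ratio.

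**Figure D4:**
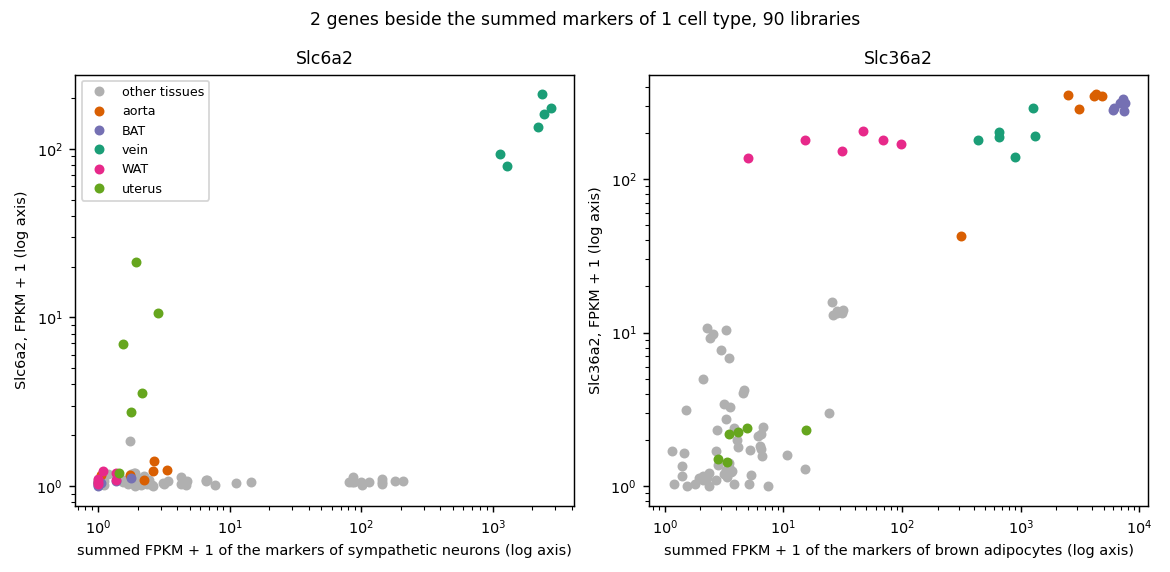
Slc6a2 against the summed markers of sympathetic neurons (left) and Slc36a2 against the summed markers of brown adipocytes (right), both as FPKM + 1 on log axes, 1 point per library. The 6 vein libraries stand at the upper right on the left side, and the uterus has the next highest mean of Slc6a2. WAT has Slc36a2 at low brown adipocyte markers, and aorta estrus replicate 1 falls below the other aorta libraries on the right side.

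Stomach and spleen had 9 members each called higher (backgrounds 9.62% and 17.8%) and 10 and 12 lower (8.85% and 13.1%). Slc5a5, the iodide carrier known from thyroid and gastric mucosa, ranged over 23.2 to 72.1 FPKM with a median of 34.7 in stomach (log2 difference 4.49, SE 0.31, adjusted p = 2.69e-20). Duodenum estrus replicate 1, the library with gastric markers, held Slc5a5 at 90.5 FPKM, and the other 5 duodenum libraries at most 0.16 FPKM. Slc6a20a, Slc38a5 and the glycine carrier Slc6a9 were also higher in stomach, at log2 differences of 2.14, 1.75 and 1.58. In spleen the glutamine carriers Slc38a1 and Slc38a5 led, at 2.39 and 2.35, with Slc7a11 at 1.94 and Slc1a5 at 1.85. Pancreatic markers summed to 3717 FPKM in spleen estrus replicate 2 and to at most 5.61 FPKM in the other 5, and without that library 9 members were again called higher.

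The ovary and the uterus, compared over 12 libraries, differed in 21 of 72 members tested: 11 were higher in ovary (background 7.69%) and 10 lower (6.19%). The glutamine carriers of Slc38 stood out in ovary. Slc38a3 ranged over 13.7 to 56.4 FPKM with a median of 41.7 there and stayed under 0.3 FPKM in every uterus library (log2 difference 4.87, SE 0.27, adjusted p = 1.99e-07), and Slc38a5 over 26.1 to 52.3 FPKM with a median of 38.6 (log2 difference 4.49, SE 0.21, adjusted p = 5.29e-08). Slc5a4b, Slc5a4a and the light subunit Slc7a8 followed, at log2 differences of 2.46, 2.37 and 2.23. Slc7a5, the light subunit of the large neutral amino acid exchanger, was highest of all tissues in ovary, at 49.9 to 62.4 FPKM with a median of 51.1. Against the other 14 tissues 14 members were called higher in ovary (background 16.9%) and 12 lower (4.36%), or 9 and 14 after rescaling by the median ratio.

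In uterus, where 12 members were called higher than in the other tissues (background 13.1%) and 11 lower (4.81%), the leading gene was Slc1a1, at 18.3 to 68.6 FPKM with a median of 28.2 against 0.25 to 5.71 FPKM with a median of 0.4 in ovary (log2 difference -4.28, SE 0.49, adjusted p = 5.43e-05). The highest ovary value, 5.71 FPKM in estrus replicate 3, came from the library where the oviduct markers summed to 1639 FPKM, against 2.89 to 44.3 FPKM in the other 5. Without it the log2 difference was -4.72. Slc1a5 ranged over 119 to 228 FPKM with a median of 207 in uterus (log2 difference -2.96, SE 0.16, adjusted p = 1.73e-07).

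Other uterine members varied widely from library to library. Slc6a14, a broad carrier of neutral and cationic amino acids, had a mean over 1 FPKM in uterus alone, at 3.05, 2.41 and 24.1 FPKM in estrus and 3.85, 17.4 and 7.09 FPKM in diestrus. The ovary stayed below it (ovary against uterus, log2 difference -2.69, SE 0.47, adjusted p = 0.00114). Its highest value, in estrus replicate 3, came with squamous markers at 2173 FPKM (0.35 to 67.5 FPKM in the other 5) and oviduct markers at 2801 FPKM, and the difference between the tissues without that library was -2.30 (log2). Slc7a11 was at 4.66, 28.1 and 1.71 FPKM in estrus and 15.1, 28.3 and 1.05 FPKM in diestrus, so both phases held high and low libraries. Against the uterus the ovary was lower (log2 difference -2.29, SE 0.68, adjusted p = 0.0232). The adjusted p of that difference was 0.183 without the libraries numbered 1 and 0.210 without those numbered 2, where the log2 difference was -1.37. Slc5a9, a carrier of mannose and other sugars, was at 29.9, 1.75 and 9.91 FPKM in estrus and 2.02, 2.63 and 0.97 FPKM in diestrus, with an overlap between the phases. The ovary was again lower (ovary against uterus, log2 difference -2.24, SE 0.52, adjusted p = 0.00611). None of the 3 genes was called between the phases in the fit of the uterus alone.

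Estrus and diestrus were then compared within each tissue, which is the contrast the study was built on. In limma fits of the 6 libraries of a tissue, over the genes that averaged 1 FPKM or more there, no member passed the limits in any of the 15 tissues. Between 21 and 47 members passed the filter in a tissue. The background was as low, with 1 gene called in skeletal muscle (0.00936% of those tested), 1 in spleen (0.00798%) and 0% in the other 13 tissues. A single limma fit of all 90 libraries, in which all tissues share 1 spread, called members in 4 tissues. They were 2 of 22 in BAT (background 8.94%), 4 of 35 in duodenum (4.32%), 2 of 33 in stomach (2.94%) and 5 of 38 in uterus (6.63%), and the background was 0% to 0.773% in the other 11 tissues. At an unadjusted p under 0.05 the members counted 11 of 38 in vein (background 12.1%), 9 of 47 in hypothalamus (13.2%), 7 of 44 in kidney (2.87%), 4 of 21 in skeletal muscle (20.8%), 4 of 37 in ovary (5.96%), 4 of 38 in uterus (3.74%), 3 of 35 in duodenum (13.5%), 3 of 27 in WAT (5.97%) and 2 of 33 in stomach (7.38%). They counted 1 in cerebrum (3%), heart (6.1%) and liver (5.6%), and 0 in aorta (3.11%), BAT (12.8%) and spleen (3.51%), or 50 of 495 tests in all. An exact permutation test of 3 against 3 cannot go below p = 0.1. Of the lists fixed beside the members, no heavy or accessory subunit, other nutrient transporter, amino acid response or osmotic response gene was called in any tissue. Of their 410 limma tests 55 were under an unadjusted p of 0.05. The share of all genes under that p ran from 2.87% in kidney to 20.8% in skeletal muscle, and no share over all tissues was computed for either total.

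The pair of genes with the widest gap between phases was in the uterus. Slc5a11, the inositol carrier, was at 0.15, 1.91 and 0.45 FPKM in estrus and 7.69, 18.9 and 15.7 FPKM in diestrus. Every diestrus library was above every estrus library (log2 difference -3.07, SE 0.47, adjusted p = 0.897). Slc6a2, the noradrenaline carrier, was at 0.2, 2.57 and 1.74 FPKM in estrus and 9.66, 5.94 and 20.3 FPKM in diestrus, again without overlap (log2 difference -2.36, SE 0.55, adjusted p = 0.897). Slc1a1 was at 18.3, 30.1 and 21.4 FPKM in estrus and 26.3, 67.6 and 68.6 FPKM in diestrus, and 1 estrus library lay above the lowest diestrus library (log2 difference -1.09, SE 0.42, adjusted p = 0.897).

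Non-overlap together with a log2 difference of at least 1 was met by 2 of the 38 uterine members tested (5.26%), and by 2.39% of all genes tested there. The kidney tubule markers Umod, Slc12a1, Aqp2 and Lrp2 summed to 0.39 to 4.51 FPKM in the estrus uterus and to 14.9 to 81.2 FPKM in the diestrus uterus, and those of the uterus itself to 67.7 to 201 FPKM and 207 to 401 FPKM. Their part in the phase difference was not tested. Slc7a12 and Slc5a10 had a mean of at least 1 FPKM in kidney alone. In uterus Slc7a12 had a mean of 0 FPKM, and Slc5a10 had log2(FPKM + 1) means of 0.132 in estrus and 0.0325 in diestrus. Slc5a8, also highest in kidney, had a mean of 3.68 FPKM in uterus. Of the sympathetic neuron markers Th, Dbh and Npy, Th stayed at or under 0.21 FPKM in every uterus library, and the others are not given here. The part of neurons in the uterine level of Slc6a2 was not tested. Leaving out single uterus libraries gave log2 differences from -3.46 to -2.79 for Slc5a11 and from -2.73 to -1.90 for Slc6a2.

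In the duodenum 2 of 35 members met the same condition (background 3.46%), both lower in estrus. The arginine and lysine carrier Slc7a1 was at 7.21, 2.12 and 7.77 FPKM in estrus and 14.99, 11.6 and 10.6 FPKM in diestrus (log2 difference -1.13, SE 0.41, adjusted p = 0.368). The glutamate carrier Slc1a3 was at 1.34, 0.34 and 2.74 FPKM in estrus and 5.76, 3.82 and 3.77 FPKM in diestrus (log2 difference -1.24, SE 0.39, adjusted p = 0.368). The enterocyte markers were both lowest and highest in estrus, at 3524, 14549 and 13422 FPKM, against 5458, 7110.1 and 7536 FPKM in diestrus. Slc7a15 was at 35.7, 128 and 130.4 FPKM in estrus and 21.6, 26.04 and 56.8 FPKM in diestrus, and its 2 high libraries were the 2 with the highest enterocyte sums. The phases did not overlap once estrus replicate 1 was set aside. Without that library the log2 differences were -1.35 for Slc7a1 and -1.26 for Slc1a3, and without estrus replicate 2, the lowest for both, they were -0.65 and -0.86. Over all single libraries left out they ran from -1.39 to -0.65 and from -1.60 to -0.86. Slc1a1 was at 2.09, 1.27 and 7.88 FPKM in estrus and 19.4, 7.30 and 12.6 FPKM in diestrus, with an overlap of 1 library in each phase (log2 difference -1.73, SE 0.56, adjusted p = 0.368).

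In the ovary 2 of 37 members met the condition (background 1.49%). Slc38a3 was at 13.7, 39.5 and 23.8 FPKM in estrus and 56.4, 49.05 and 43.95 FPKM in diestrus, so diestrus was higher throughout (log2 difference -1.04, SE 0.34, adjusted p = 0.816). Slc5a4b was at 2.51, 2.41 and 4.08 FPKM in estrus and 4.74, 6.73 and 9.97 FPKM in diestrus, with the same direction (log2 difference -1.0003, SE 0.27, adjusted p = 0.775). Leaving out single ovary libraries gave -1.40 to -0.67 for Slc38a3, the last without estrus replicate 1, and -1.23 to -0.76 for Slc5a4b. The summed granulosa and luteal markers were 4068, 4216 and 4148 FPKM in estrus and 5020, 5961 and 5938 FPKM in diestrus, without overlap, and their part was not tested.

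**Figure D5:**
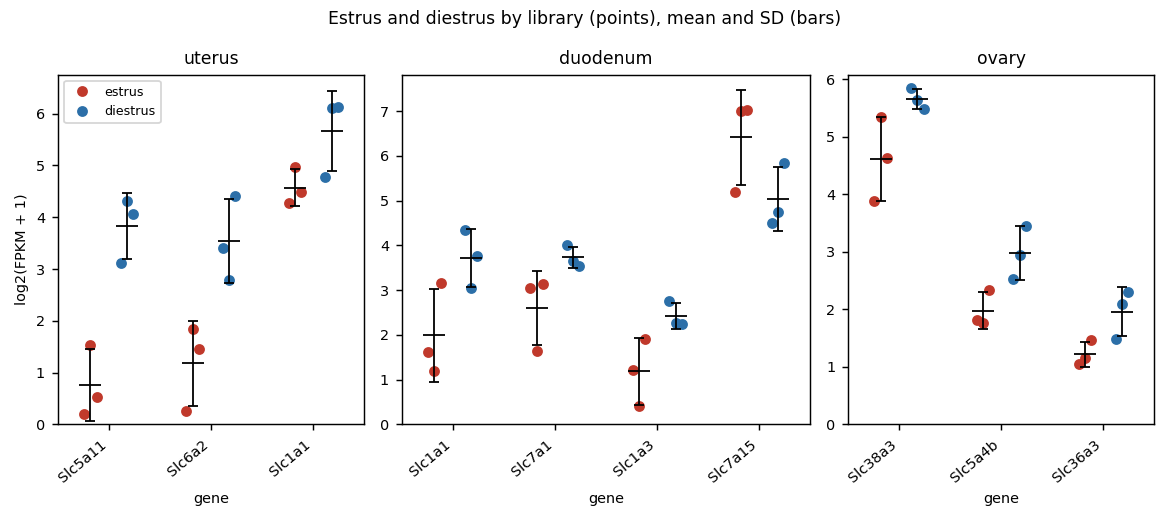
Values on a log2(FPKM + 1) scale for members in uterus, duodenum and ovary, 1 point per library, with the mean and SD of the 3 estrus (red) and 3 diestrus (blue) libraries as black bars. Slc5a11 and Slc6a2 in uterus, Slc7a1 and Slc1a3 in duodenum and all 3 ovary genes keep the phases apart, and Slc7a15 has 1 low estrus library.

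The condition was met by few members elsewhere. In BAT it was 2 of 22 (background 5.32%), Slc1a1 at 1.23, 2.71 and 0 FPKM in estrus and 3.76, 3.16 and 3.91 FPKM in diestrus and Slc38a6 at 2.17, 2.97 and 0 FPKM in estrus and 4.10, 4.22 and 4.20 FPKM in diestrus. The third estrus value of both is the shallow library, and without it the log2 differences were -0.68 and -0.54. In aorta it was Slc36a2 (1 of 29, background 1.08%), whose log2 difference of -1.13 was -0.17 without the low estrus replicate 1. In vein it was Slc7a10 (1 of 38, background 0.431%), at 54.5, 44.1 and 44.2 FPKM in estrus and 21.3, 13.4 and 41.2 FPKM in diestrus (log2 difference 1.02, SE 0.36, adjusted p = 0.412), the only one that was higher in estrus. Single vein libraries left out gave 0.66 to 1.43, the first without diestrus replicate 2 and the last without diestrus replicate 3. The white fat markers of vein summed to 2032, 3511 and 2845 FPKM in estrus and 2291, 1305 and 2712 FPKM in diestrus, and the brown fat markers to 1321, 1259.6 and 654 FPKM in estrus and 439, 898 and 654 FPKM in diestrus. Both overlapped between the phases and were lowest in a diestrus library, and their part was not tested. The lowest adjusted p of any member was that of Slc38a4 in skeletal muscle, at 23.6, 20.9 and 26.1 FPKM in estrus and 14.04, 12.5 and 10.7 FPKM in diestrus (log2 difference 0.88, SE 0.12, adjusted p = 0.0867). The phases did not overlap there, and the difference was under the limit of 1.

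Whether the phase difference of a gene itself differs between tissues was tested over all 90 libraries with the F-test of the tissue by phase terms in limma. Of the 73 members 6 were called at an adjusted p of at most 0.05, or 8.22%, where 4.68% of all genes were. With the replicate number as a block 5 were called, without Slc5a10 (adjusted p = 0.0583). The 6 were Slc5a11 (adjusted p = 2.52e-08), Slc6a2 (1.91e-07), Slc36a3 (0.00437), Slc1a1 (0.0149), Slc7a15 (0.0258) and Slc5a10 (0.0425). In this fit all tissues share 1 spread, which is narrower than that of the uterus alone: the SE of Slc5a11 in uterus was 0.25 in it and 0.47 in the fit of the uterus.

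The largest differences behind these 6 calls lay in uterus for Slc5a11 and Slc6a2, in duodenum for Slc1a1 and Slc7a15, in ovary for Slc36a3 and in kidney for Slc5a10. Slc36a3, of the proton-coupled family, was at 1.06, 1.23 and 1.76 FPKM in estrus and 1.79, 3.28 and 3.94 FPKM in diestrus in ovary, without overlap and with a log2 difference of -0.74. Slc5a10 was at 128, 136 and 163 FPKM in estrus and 115, 122 and 99.6 FPKM in diestrus in kidney, where estrus was higher throughout by a log2 difference of 0.34. Slc5a11 in kidney, at 33.9, 37.5 and 30.6 FPKM in estrus and 33.9, 25.3 and 29.03 FPKM in diestrus, overlapped between the phases. With a pseudocount of 0.1 only Slc5a11 and Slc6a2 were called, and without the libraries numbered 3 they were called with Slc1a1. Slc7a15 had an adjusted p of 0.901 without the libraries numbered 2, Slc36a3 of 0.411, and Slc5a10 of 0.870 without those numbered 3.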

How the data were processed

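RNA of 90 libraries was sequenced on the BGISEQ-500. Reads were cleaned by the authors with SOAPnuke, mapped to GRCm38.p5 by Bowtie2 2.2.5 and turned into abundances by RSEM 1.2.8 (tools and build from the submitters' processing notes and the study's methods). The deposited table holds 1 value per gene and library, taken as FPKM, scaled by the authors to transcript length and library size. The labels do not name the unit. Total read counts per library were not used here, so depth was gauged only by the step that 1 read makes in the FPKM of short genes. Strand was not given in the sources used here.

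Symbols were matched to 20265 of 20414 gene identifiers. Values were transformed to log2(FPKM + 1) and fitted over all genes by limma 3.58.1 (trend on; R 4.3.3) with Benjamini-Hochberg adjustment. The study's own tool, DEGSeq, takes counts and was not run. Phases were compared within each tissue over the genes that averaged 1 FPKM or more in its 6 libraries. Each tissue was compared with the other 14 in 1 fit of all libraries, 3 tissue pairs were fitted with phase as a covariate, and an F-test asked whether the phase difference differs between tissues. The last 3 used every gene above 0 in a library of the fit. A call needed an adjusted p up to 0.05 together with an absolute log2 difference of 1 or more, or for the F-test the adjusted p alone. The fit of the phases within a tissue was tested on simulated data for kidney and uterus, and the other fits were not. The 3 libraries of a group are from 3 mice, and the mice gave several tissues each, so libraries of different tissues are not fully independent. Within a tissue, replicates of equal number in estrus and diestrus are different mice, and their deviations were not shared (r from -0.52 to 0.44, with no tissue over 0.1 for all 3 numbers). No library was identical to another.

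Members named in the text were those without overlap between the phases and a log2 difference of at least 1, the 5 called higher with the largest difference in each tissue, the 5 in each direction in each tissue pair and the member with the highest mean in each transport role. Values of 1 member and 1 accessory gene are not reported here. Others are named as further members of a family or for the F-test. The genes, lists and rules were chosen with earlier results of these data known. The alternatives tried were another pseudocount, other filters, median ratio scaling, a replicate block, no trend, a fold limit of 2, one fit of all libraries and libraries left out. Promoter windows came from RefSeq (GRCm38.p6) and were searched in Python 3.11.15.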

Additional observations from a re-analysis of the deposited data

Results flagged for a closer look

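Of the 73 genes, 6 had a phase difference that differed between the 15 tissues by limma's F-test of the tissue by phase terms. The adjusted p was 2.52e-08 for Slc5a11 and 1.91e-07 for Slc6a2, both with their widest gap in uterus, where all 3 diestrus libraries were above all 3 estrus libraries. It was 0.00437 for Slc36a3, with its widest gap in ovary, and 0.0149 for Slc1a1 and 0.0258 for Slc7a15, with theirs in duodenum. Slc5a10 had 0.0425, with its widest gap in kidney, at a log2 difference of 0.34. None of the 6 passed the limits in the fit of its own tissue. Slc5a11 and Slc6a2 were called in every alternative fit, and the other 4 were not. A pseudocount of 0.1 left only those 2 called. Slc7a15 had an adjusted p of 2.06e-09 without the duodenum library that held gastric markers and of 0.901 without the libraries numbered 2, where Slc36a3 had 0.411. Slc1a1 had 0.301 without the libraries numbered 1, and Slc5a10 had 0.870 without those numbered 3 and 0.0583 with the replicate number as a block.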

How the results depend on the processing

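No result changed direction under any alternative. Of 548 recomputed counts 495 stayed within 1.5 times the reported count, and 1004 of 1031 recomputed member differences kept their side of the limits. These totals include the counts of members called between phases, which were 0 in each tissue and stayed at 0 in most alternatives. They also include phase differences that were not called to begin with, which kept their side even where they shrank. That of Slc38a6 in BAT went from -1.15 to -0.54 without the shallow library. The sets of libraries left out for markers of another tissue were chosen after the data were seen, and all 93 of those values stayed within the same bounds.

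A pseudocount of 0.1 gave more members called lower: 17 in aorta, 42 in BAT, 13 in cerebrum, 40 in heart, 9 in hypothalamus, 17 in kidney, 41 in liver, 43 in skeletal muscle, 19 in spleen, 18 in stomach, 12 in vein and 30 in WAT. It gave 23 called higher in ovary, 14 in spleen and 15 in stomach, 14 lower in kidney than in duodenum, 9 higher in hypothalamus than in cerebrum and 23 higher in ovary than in uterus, and 2 by the F-test. A fold limit of 2 (log2) left 2 called higher in aorta, BAT, heart, skeletal muscle, spleen and stomach, 13 in cerebrum, 6 in ovary, 7 in vein and 4 in uterus. It left 0 called lower in aorta and ovary, 4 in BAT and skeletal muscle, 2 in cerebrum, hypothalamus and uterus, 3 in duodenum, kidney, spleen and stomach, 5 in heart, 9 in liver and 1 in vein and WAT. Median ratio scaling gave 18 called lower in skeletal muscle, 9 called higher in ovary and 8 called lower in vein, and the share of higher among called members went from 53.8% to 39.1% in ovary and from 70.6% to 57.9% in vein.

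The single fit of all 90 libraries called 13 members between phases, with 2 in BAT (background 8.94%), 4 in duodenum (4.32%), 2 in stomach (2.94%) and 5 in uterus (6.63%), against 0 by the fits of each tissue. Leaving out libraries gave 3 to 8 members by the F-test. The fit with the replicate number as a block called 0 members between phases in every tissue and 5 members by the F-test (without Slc5a10), and changed the call of no member named in a tissue or tissue pair.

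Depth limits BAT, where a 0 in estrus replicate 3 says little, and genes under about 1 FPKM, whose log2(FPKM + 1) differences are compressed.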
